A study of Rattus norvegicus with 10 samples.

Results

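Messenger RNA of 9 genes of the fibroblast growth factor (FGF) family was examined in the rat hippocampus 1 week after traumatic brain injury (TBI). The genes were 3 secreted factors (Fgf1, Fgf2, Fgf9), 3 intracellular factors (Fgf12, Fgf13, Fgf14) and 3 receptors (Fgfr1, Fgfr2, Fgfr3). They were found by gene symbol, and rows that share a symbol were summed per library. The 9 genes stood on 11 of the 25269 loci of the table, and all 9 were among the 16194 genes and unnamed loci with a mean of at least 0.5 FPKM (fragments per kilobase of transcript, relative to all mapped fragments of a library) that were tested. There were 5 libraries of injured rats, named TBI 1 to TBI 5, and 5 of rats with sham surgery, sham 1 to sham 5. All rats were male Sprague-Dawley animals of 200 to 240 g with no other treatment or genetic change in the labels. Fluid percussion, a pulse of liquid onto the exposed dura, produced the injury, and a learning test was given before the tissue was taken. The labels do not state that the libraries are of different animals. All p-values therefore refer to the scatter among these libraries, part of which may be technical.

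Secreted FGFs bind receptor tyrosine kinases on the cell surface together with heparan sulfate, and the receptors signal through the adaptor Frs2 to the Ras and MAP kinase cascade and through phospholipase C gamma. In the brain Fgf2 and Fgfr3 are known from astrocytes, Fgfr2 from astrocytes and oligodendrocytes, and Fgfr1 from neurons and glia. The intracellular FGFs are not secreted and do not activate these receptors in the usual way. They bind the tail of voltage-gated sodium channels and set where and how those channels open, and Fgf13 also binds microtubules.

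Intracellular FGF genes are known to make proteins with different N-terminal ends from alternative first exons. The RefSeq table of the GRCr8 build, used for sequence only, matched 8 of the 9 genes and listed 2 starts for Fgf12 and 2 for Fgf14, while the deposited table gave each of these genes 1 value that does not separate its starts. The 250 bases before each of the 4 starts are shown for that reason, 5′ to 3′ on the strand of the gene, with the dinucleotide CG in capitals. The dinucleotide was counted on 1 strand, which for CG gives the same count as the other strand. In each gene a start with 17 CG was listed beside a start with fewer.
Fgf12, start of 17 CG, chr11:85501697-85501946, plus strand: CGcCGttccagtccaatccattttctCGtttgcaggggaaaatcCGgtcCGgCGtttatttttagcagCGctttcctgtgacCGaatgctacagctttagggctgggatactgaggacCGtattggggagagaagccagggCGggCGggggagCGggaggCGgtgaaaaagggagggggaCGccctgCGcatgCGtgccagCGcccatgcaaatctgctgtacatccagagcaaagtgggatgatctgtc
Fgf12, start of 3 CG, chr11:85801508-85801757, plus strand: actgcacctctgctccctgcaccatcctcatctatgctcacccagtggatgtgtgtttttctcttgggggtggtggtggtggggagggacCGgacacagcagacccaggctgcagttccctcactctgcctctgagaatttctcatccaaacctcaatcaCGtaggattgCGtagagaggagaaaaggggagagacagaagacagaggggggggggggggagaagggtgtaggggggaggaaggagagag
Fgf14, start of 17 CG, chr15:107680746-107680995, minus strand: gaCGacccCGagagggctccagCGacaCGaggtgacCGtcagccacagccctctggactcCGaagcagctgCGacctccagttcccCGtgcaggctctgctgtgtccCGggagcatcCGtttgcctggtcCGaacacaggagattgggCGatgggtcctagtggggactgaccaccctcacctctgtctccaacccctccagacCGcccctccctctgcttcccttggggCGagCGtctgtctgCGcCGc
Fgf14, start of 6 CG, chr15:108086413-108086662, minus strand: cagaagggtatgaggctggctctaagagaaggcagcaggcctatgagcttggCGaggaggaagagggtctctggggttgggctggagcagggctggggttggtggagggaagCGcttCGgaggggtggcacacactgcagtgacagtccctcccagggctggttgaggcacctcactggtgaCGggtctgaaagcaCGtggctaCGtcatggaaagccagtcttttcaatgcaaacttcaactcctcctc
Over all 33469 starts of that table the median was 5 CG in the 250 bases, and 92.2% held at least 1. As many as 17 CG or more stood before 21.9% of starts, as many as 6 or more before 49.8%, and as many as 3 or more before 71.4%. These letters describe the starts and say nothing of which of them the hippocampus uses.

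The libraries differed in more than treatment. Markers of excitatory and inhibitory neurons, astrocytes, oligodendrocytes, microglia and endothelium were present in all 10 libraries. Of 6 hippocampal subfield markers 4 had a mean of at least 1 FPKM, among them Prox1 of dentate granule cells (10.8 to 18.0 FPKM after TBI and 6.99 to 22.1 FPKM in sham) and Wfs1 of CA1 neurons (64.0 to 160.8 FPKM after TBI and 70.1 to 264.9 FPKM in sham), while Tdo2 stayed at or below 0.0607 FPKM and Dsp was not analysed here. The 6 choroid plexus markers, all in the table, summed to 90.1 to 32886 FPKM after TBI and 53.1 to 31889 FPKM in sham. Transthyretin (Ttr), the main choroid plexus transcript, divided the libraries into 4 with 34.5 to 421 FPKM (TBI 2, sham 1, sham 4, sham 5) and 6 with 9079 to 32233 FPKM. The 5 meninges and matrix markers summed to 23.2 to 116 FPKM after TBI and 20.0 to 126 FPKM in sham, highest in TBI 1 and sham 4, and of these Col1a2 is listed at 0 in every library. TBI 1 had the lowest sum of the 10 libraries for 6 of the 11 marker lists, namely excitatory neurons (2477 FPKM, against 3673 to 4695 FPKM in the other injured libraries), inhibitory neurons (336 FPKM), hippocampal subfields (108 FPKM), astrocytes (1348 FPKM), oligodendrocytes (3270.5 FPKM) and microglia (84.3 FPKM). In whole tissue, fewer cells of a type and less RNA per cell cannot be told apart.

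In none of the 9 genes did the difference between injured and sham hippocampus exceed the spread between libraries. Of the 9, 7 had a lower mean log2 level after TBI, where 49.6% of all tested had one, and 2 had a higher one, where 50.4% of all tested did. In every gene the ranges of both groups overlapped. By limma with Benjamini-Hochberg adjustment over the 16194 genes and loci, 0 of the 9 passed an adjusted p of 0.05, and over all tested rows 0 passed (0%). At an unadjusted p under 0.05 there were 0 of the 9, against 2.91% of all tested (1.41% higher and 1.51% lower after TBI). Groups without overlap numbered 0 of the 9, against 0.482% of all tested (0.241% higher and 0.241% lower). The exact permutation test over all assignments of the libraries to 2 groups of 5 called 0 of the 16194 after adjustment. The smallest p it can give is 0.00794, and 78 rows stood there. Far more rows would have to stand there for any to pass adjustment over 16194. This 0 was therefore nearly fixed in advance, and no conclusion is drawn from it. The adjusted p of the 9 genes in limma's test was 0.983 to 0.999. Their median log2 difference was -0.086, against 0.0013 over all tested.

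**Figure D1:**
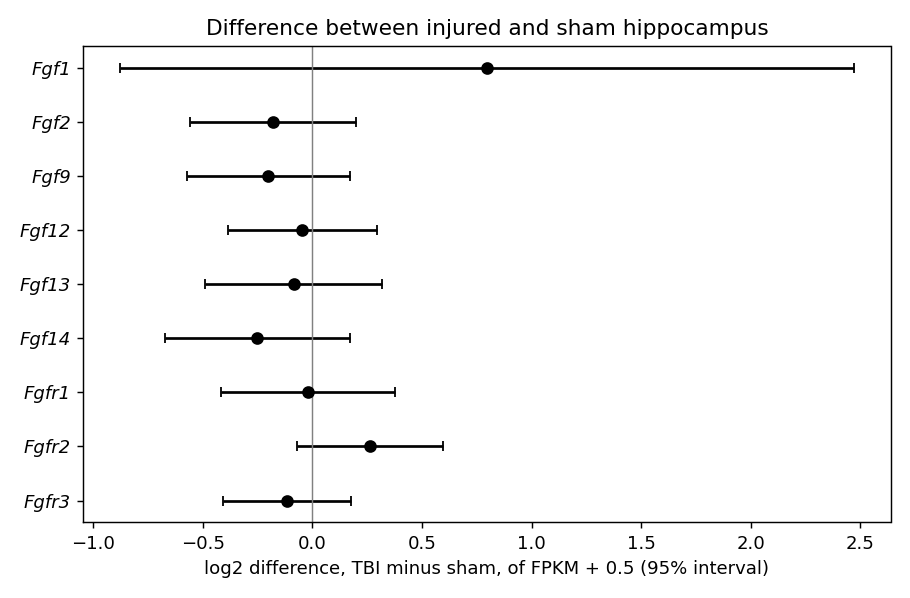
Log2 difference of FPKM + 0.5, TBI minus sham, for the 9 genes, with the 95% interval of limma's fit (5 libraries a group). Every interval crosses 0, and that of Fgf1, which runs from -0.88 to 2.47, is the widest.

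Of the secreted factors, Fgf1 varied most. Fgf1 encodes acidic FGF, which binds all the receptors of the family and leaves cells without a signal peptide. It was at 28.5, 0.687, 2.69, 3.75 and 4.58 FPKM in TBI 1 to TBI 5, and at 0.744, 6.39, 2.65, 3.18 and 1.003 FPKM in sham 1 to sham 5. TBI 1 stood far above every other library, sham 2 came next, and the other injured libraries lay inside the sham range or, in TBI 2, just below it. The means were 8.03 ± 11.5 FPKM after TBI and 2.79 ± 2.26 FPKM in sham (SD, n = 5 each). Between TBI and sham the log2 difference was 0.80 (SE 0.76, 95% interval -0.88 to 2.47, limma adjusted p = 0.983). Without TBI 1 it was 0.14, and without any other single library 0.51 to 1.30.

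Fgf2, or basic FGF, is a mitogen for neural progenitors and astrocytes. It was at 9.06, 10.3, 13.3, 9.05 and 11.5 FPKM in TBI 1 to TBI 5, and at 11.5, 9.33, 11.2, 11.2 and 18.3 FPKM in sham 1 to sham 5. Sham 5 was the highest library, and the other sham values lay within the injured range. TBI minus sham was -0.18 on the log2 scale (SE 0.17, 95% interval -0.56 to 0.20, limma adjusted p = 0.983), and without sham 5 it was -0.032.

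Fgf9, first found as a glia-activating factor, is made in the brain largely by neurons. It was at 4.22, 8.41, 6.50, 7.53 and 7.87 FPKM in TBI 1 to TBI 5, and at 9.18, 8.47, 6.83, 7.59 and 7.18 FPKM in sham 1 to sham 5. TBI 1 was the lowest library, and the other injured values lay within or close to the sham range. On the log2 scale TBI minus sham was -0.20 (SE 0.17, 95% interval -0.57 to 0.17, limma adjusted p = 0.983), and without TBI 1 it was -0.046. Of the 2 loci with this symbol, XLOC_008542 held 6.07 ± 1.21 FPKM after TBI and 7.24 ± 1.001 FPKM in sham, and XLOC_008864 only 0.831 ± 0.502 FPKM after TBI and 0.609 ± 0.326 FPKM in sham (SD, n = 5 each).

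The intracellular factors held the highest level of the 9 genes. Fgf13 was at 138, 271, 241, 221 and 223 FPKM in TBI 1 to TBI 5, and at 287, 214, 226, 179 and 240 FPKM in sham 1 to sham 5. TBI 1 was the lowest and sham 1 the highest, with the other 8 libraries between 179 and 271 FPKM. Its log2 difference was -0.086 (SE 0.18, 95% interval -0.49 to 0.32, limma adjusted p = 0.983), and 0.072 without TBI 1.

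Fgf12, which binds several neuronal sodium channels, was at 35.4, 59.2, 39.7, 57.8 and 39.7 FPKM in TBI 1 to TBI 5, and at 53.7, 47.8, 40.2, 49.3 and 43.9 FPKM in sham 1 to sham 5. The injured libraries fell on both sides of the sham libraries: TBI 2 and TBI 4 lay above all of them and the other 3 below all of them. The SD was 11.2 FPKM after TBI and 5.15 FPKM in sham, around means of 46.3 FPKM after TBI and 47.0 FPKM in sham. TBI minus sham was -0.045 on the log2 scale (SE 0.15, 95% interval -0.38 to 0.29, limma adjusted p = 0.989), and it turned positive without any one of sham 1, TBI 1, TBI 3 or TBI 5.

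Fgf14, known for its place at the axon initial segment and for its mutation in a spinocerebellar ataxia in humans, was at 5.11, 7.05, 7.67, 9.93 and 8.57 FPKM in TBI 1 to TBI 5, and at 9.34, 5.94, 9.89, 11.004 and 9.83 FPKM in sham 1 to sham 5. In 4 of 5 injured libraries the log2 level was under the mean of sham, and sham 2 lay below 4 of the injured libraries. Its log2 difference was -0.25 (SE 0.19, 95% interval -0.67 to 0.17, limma adjusted p = 0.983), the lowest of the 9. It stayed below 0 with each library left out, from -0.39 to -0.12. The shares of the 3 genes in their summed FPKM were 80.0 ± 3.07% for Fgf13, 17.2 ± 2.92% for Fgf12 and 2.84 ± 0.514% for Fgf14 after TBI, against 80.1 ± 3.04% for Fgf13, 16.7 ± 2.54% for Fgf12 and 3.28 ± 0.910% for Fgf14 in sham (SD, n = 5 each).

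The receptors were at 18.4 FPKM or more in every library. Fgfr1, the receptor that Fgf2 is best known to activate, had the highest level of the 3. It was at 42.9, 58.9, 70.7, 50.8 and 78.6 FPKM in TBI 1 to TBI 5, and at 47.8, 65.6, 69.7, 49.2 and 70.8 FPKM in sham 1 to sham 5. The groups ran over nearly the same range, with TBI 1 lowest and TBI 5 highest. On the log2 scale TBI minus sham was -0.018 (SE 0.18, 95% interval -0.42 to 0.38, limma adjusted p = 0.999), and 0.024 under quantile normalization. It was also above 0 without any one of TBI 1, TBI 4, sham 2, sham 3 or sham 5, at most 0.096.

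Fgfr2 had the smallest unadjusted p of the 9, 0.111 by limma, and its adjusted p was 0.983. It was at 48.7, 33.5, 37.4, 39.7 and 45.9 FPKM in TBI 1 to TBI 5, and at 32.5, 46.3, 36.3, 26.5 and 30.5 FPKM in sham 1 to sham 5. In 4 of 5 injured libraries the log2 level exceeded the mean of sham, but sham 2 lay above all injured libraries except TBI 1. TBI minus sham was 0.26 on the log2 scale (SE 0.15, 95% interval -0.071 to 0.60), and it was above 0 with each library left out, from 0.18 to 0.37. Its symbol stands on 2 loci. XLOC_002489 was at 18.6 to 32.7 FPKM after TBI and 18.7 to 24.5 FPKM in sham, and XLOC_000989 at 12.8 to 15.9 FPKM after TBI and 7.79 to 24.4 FPKM in sham. They did not run in parallel: XLOC_000989 made up 52.7% of the sum in sham 2, 44.6% in TBI 2 and 29.1 to 34.2% in the other 8 libraries. Tested apart, the log2 differences were 0.27 (SE 0.14) for XLOC_002489 and 0.28 (SE 0.25) for XLOC_000989, each with a limma adjusted p of 0.988.

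Fgfr3, a receptor of astrocytes, was at 18.8, 24.6, 22.9, 22.8 and 19.2 FPKM in TBI 1 to TBI 5, and at 29.7, 18.4, 22.5, 21.3 and 26.6 FPKM in sham 1 to sham 5. All injured libraries lay inside the sham range. The log2 difference was -0.12 (SE 0.13, 95% interval -0.41 to 0.18, limma adjusted p = 0.983). Of the summed FPKM of the 3 receptors, Fgfr1 made up 48.6 ± 6.67%, Fgfr2 33.6 ± 6.44% and Fgfr3 17.8 ± 3.003% after TBI, against 50.8 ± 4.66% for Fgfr1, 28.9 ± 4.27% for Fgfr2 and 20.3 ± 4.84% for Fgfr3 in sham (SD, n = 5 each). In TBI 1 Fgfr2 was the largest of the 3, with 44.1% of the sum. That rests on adding its 2 loci, as the higher one alone was at 32.7 FPKM there, below Fgfr1 at 42.9 FPKM.

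**Figure D2:**
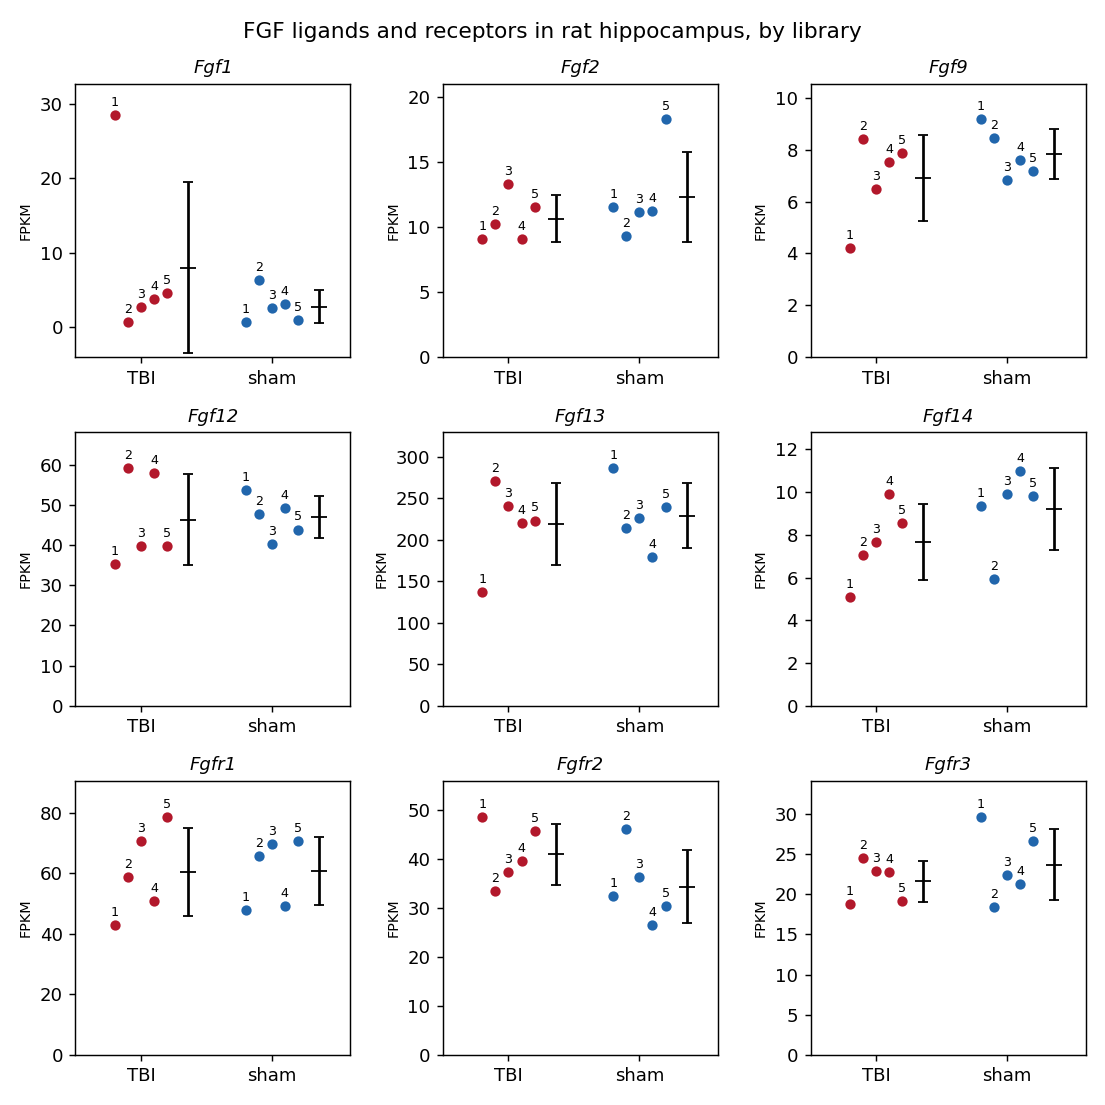
FPKM of the 9 genes in each library, 5 TBI at the left and 5 sham at the right of each panel. Points carry the library number and the bars give mean and SD; Fgf1 in TBI 1, at 28.5 FPKM, stands apart, and in every panel the groups overlap.

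Across genes the levels, in FPKM and so per length, ran from Fgf13 (224 ± 42.5, SD over 10 libraries) through Fgfr1 (60.5 ± 12.2), Fgf12 (46.7 ± 8.26), Fgfr2 (37.7 ± 7.37), Fgfr3 (22.7 ± 3.58), Fgf2 (11.5 ± 2.75), Fgf14 (8.43 ± 1.93) and Fgf9 (7.38 ± 1.37) to Fgf1 (5.41 ± 8.29). Each pair of neighbours was compared within libraries by an exact two-sided sign-flip permutation test over 10 libraries, adjusted over the 8 pairs. Fgf13 was above Fgfr1 in 10 of 10 libraries by 1.88 on the log2 scale, Fgfr2 above Fgfr3 in 10 of 10 by 0.71 and Fgfr3 above Fgf2 in 10 of 10 by 0.97, each with an exact adjusted p of 0.00521. Fgf2 was above Fgf14 in 9 of 10 by 0.43 (exact adjusted p = 0.0117). The other 4 pairs did not pass: Fgfr1 and Fgf12 (exact adjusted p = 0.0625), Fgf12 and Fgfr2 (0.0692), Fgf14 and Fgf9 (0.123), and Fgf9 and Fgf1 (0.0692). With only the higher of the 2 loci of Fgfr2, its difference from Fgfr3 was 0.079 and did not pass (exact adjusted p = 0.562). With the higher locus alone for Fgfr2 and for Fgf9, Fgf12 was above Fgfr2 by 0.94 (exact adjusted p = 0.00521) and Fgf14 above Fgf9 by 0.31 (exact adjusted p = 0.0344), so both pairs passed.

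Among libraries rich in Ttr, Fgf1 and Fgfr2 (sum of its 2 loci) ran with it and Fgfr3 and Fgf13 against it by Pearson r. By Spearman rho no gene had an adjusted p under 0.05. Because Ttr divides the libraries into separate groups, no correlation was taken over all 10, and the relation was examined among the 6 libraries rich in Ttr, a choice made after the values had been seen. Pearson r was taken on the log2(FPKM + 0.5) scale. In rising order of Ttr the 6 libraries were TBI 3, sham 3, TBI 4, TBI 5, sham 2 and TBI 1. Fgfr2 was at 37.4, 36.3, 39.7, 45.9, 46.3 and 48.7 FPKM in that order, with Pearson r = 0.950 (exact permutation p = 0.0139, adjusted over the 9 genes 0.0313) and Spearman rho = 0.943 (exact permutation p = 0.0167, adjusted 0.05). Its values in the 4 libraries poor in Ttr, 26.5 to 33.5 FPKM, all lay below these.

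Fgf1 was at 2.69, 2.65, 3.75, 4.58, 6.39 and 28.5 FPKM in the same order, with r = 0.831 (exact permutation p = 0.00278, adjusted 0.0250) and rho = 0.943 (exact permutation p = 0.0167, adjusted 0.05). In the libraries poor in Ttr it was at 0.687 to 1.003 FPKM except in sham 4, with 3.18 FPKM. Sham 4 had 34.3 FPKM of the collagen Col1a1, against 30.5 in TBI 1, 20.3 in sham 2 and 1.54 to 3.54 FPKM in the other libraries. Fgfr3 ran the other way, at 22.9, 22.5, 22.8, 19.2, 18.4 and 18.8 FPKM, with r = -0.946 (exact permutation p = 0.0139, adjusted 0.0313) and rho = -0.886 (exact permutation p = 0.0333, adjusted 0.0750). Fgf13 was at 241, 226, 221, 223, 214 and 138 FPKM, with TBI 1 far below the others. It gave r = -0.695 (exact permutation p = 0.00556, adjusted 0.0250) and rho = -0.943 (exact permutation p = 0.0167, adjusted 0.05). The other 5 genes passed in neither measure. In the 4 libraries poor in Ttr, Fgfr3 was at 21.3 to 29.7 FPKM and Fgf13 at 179 to 287 FPKM. Both ranges overlapped those of the rich libraries, and Fgf13 in sham 4, at 179 FPKM, lay below all of these except TBI 1. Without the 2 libraries farthest from the median of Ttr, r over the other 4 was 0.986 for Fgfr2, 0.967 for Fgf1, -0.914 for Fgfr3 and -0.580 for Fgf13. With Ttr as a covariate over all 10 libraries the log2 difference between TBI and sham was 0.11 for Fgfr2 and 0.11 for Fgf1, against 0.26 for Fgfr2 and 0.80 for Fgf1 without it, and the adjusted p by limma was 0.9997 for both. With Col1a1 as covariate in place of Ttr it was 0.27 for Fgfr2 and 0.95 for Fgf1, and without TBI 1 and sham 2, the libraries of most Ttr, it was 0.31 for Fgfr2 and 0.48 for Fgf1. Both of these alternatives were chosen after seeing the data. Ttr and treatment were partly confounded, since the libraries rich in Ttr were TBI 1, TBI 3, TBI 4, TBI 5, sham 2 and sham 3. A fit with Ttr as covariate therefore cannot tell choroid plexus content from treatment. It also takes a straight line over all 10 libraries, which Ttr divides into separate groups. The cause of the smaller differences was not tested.

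**Figure D3:**
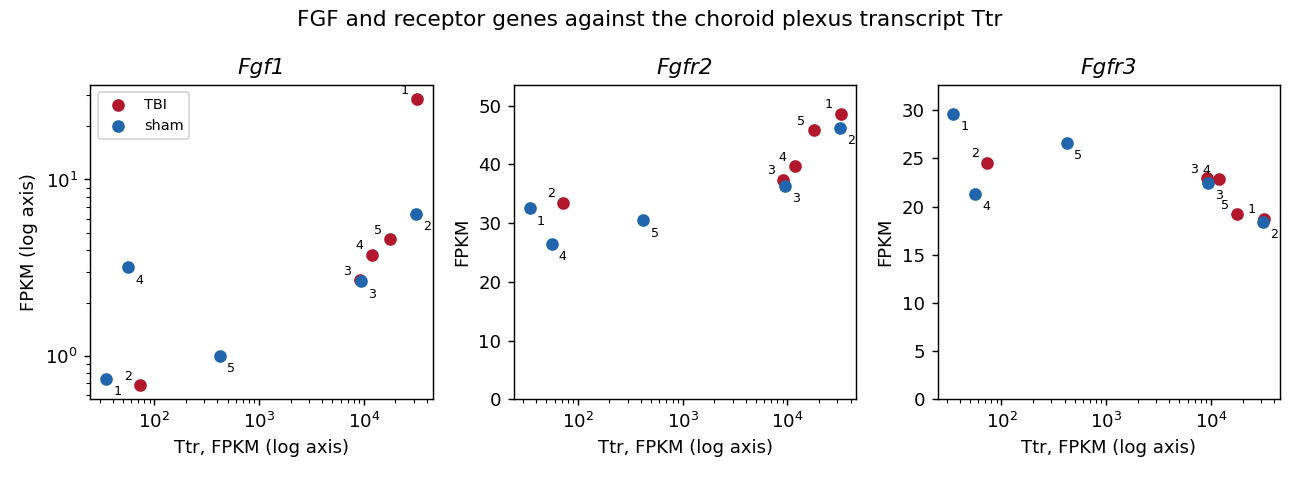
FPKM of Fgf1, Fgfr2 and Fgfr3 against FPKM of Ttr in the 10 libraries, TBI in red and sham in blue with library numbers; axes of Ttr and of Fgf1 are logarithmic. Among the 6 libraries at 9079 FPKM of Ttr or more, Fgf1 and Fgfr2 are higher and Fgfr3 lower where Ttr is higher. Fgfr2 is the sum of its 2 loci, which did not run in parallel. At the higher locus alone sham 2, at 21.9 FPKM, was the lowest of the 6 libraries.

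Relations among the 9 genes (36 pairs) and with Aqp4 of astrocytes, Rbfox3 of neurons and Mbp of oligodendrocytes (27 pairs) were computed over the 10 libraries on the log2 scale. Of the 63, 13 had a Pearson permutation p under 0.05 and 5 kept it after adjustment; by Spearman 11 had a permutation p under 0.05 and 0 passed adjustment, with a smallest adjusted p of 0.0509. Fgf2 followed both glial markers. Its r was 0.852 with Mbp (permutation p = 0.00085, adjusted 0.0265; rho = 0.855, permutation p = 0.00323, adjusted 0.0509) and 0.853 with Aqp4 (permutation p = 0.00172, adjusted 0.0265; rho = 0.818, permutation p = 0.00570, adjusted 0.0598). Within groups r with Aqp4 was 0.902 in TBI and 0.912 in sham. Sham 5, the library of most Fgf2, also had the most Aqp4 (150 FPKM) and the most Mbp (3754 FPKM).

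Fgfr1 followed Rbfox3, with r = 0.799 (permutation p = 0.00099, adjusted 0.0265) and rho = 0.758 (permutation p = 0.0147, adjusted 0.116), and r = 0.917 within TBI and 0.919 within sham. Its relation to Mbp was as close, with r = 0.800 (permutation p = 0.00573, adjusted 0.0602) and rho = 0.830 (permutation p = 0.00464, adjusted 0.0585), and r = 0.998 within TBI and 0.502 within sham. Fgf1 ran against Fgf13 (r = -0.897, permutation p = 0.0013, adjusted 0.0265; rho = -0.867, permutation p = 0.00257, adjusted 0.0509) and against Fgfr3 (r = -0.839, permutation p = 0.0021, adjusted 0.0265; rho = -0.891, permutation p = 0.00116, adjusted 0.0509). Without the 2 libraries farthest from the median of the first measure, r was 0.745 for Mbp and Fgf2, 0.785 for Aqp4 and Fgf2, 0.762 for Rbfox3 and Fgfr1, -0.664 for Fgf1 and Fgf13, and -0.967 for Fgf1 and Fgfr3. After adjustment over the 63 relations the last of these alone passed at that size (exact permutation adjusted p = 0.0156). The other 4 did not pass over the remaining 8 libraries, where fewer libraries also leave less power.

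**Figure D4:**
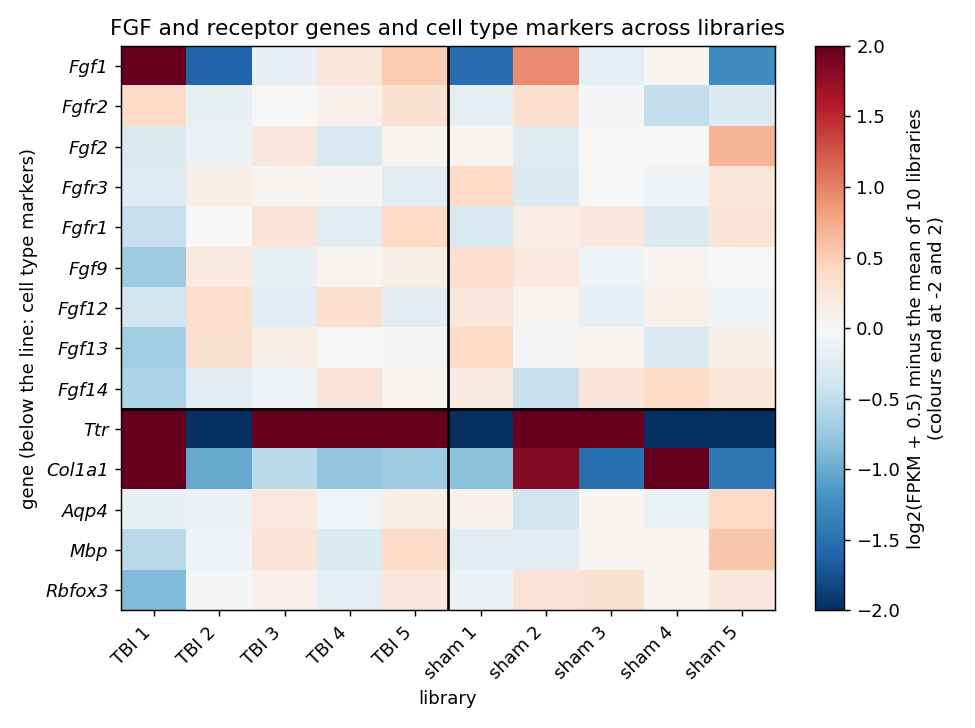
Log2(FPKM + 0.5) of the 9 genes and of 5 cell type markers, each minus its mean over the 10 libraries, with TBI at the left and sham at the right. Colours end at -2 and 2; TBI 1 is high for Fgf1, Ttr and Col1a1 and low for Fgf9, Fgf13, Fgf14 and Rbfox3.

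Genes whose pattern over the 10 libraries was most like that of each of the 9 were taken by Pearson r on the log2 scale among 10843 other named genes with a mean of at least 1 FPKM. They are given as a description, since all points share the same 10 libraries. For Fgf1 they were B4galt1 (r = 0.985), Ctsc (0.985) and Arl4a (0.981), and for Fgf2 Mmd2 (0.951), Glul (0.942) and Ret (0.923). Fgf9 was nearest to Arl6ip4 (0.971), Cct7 (0.966) and Lrrc49 (0.965). For the intracellular factors they were Kcns3 (0.952), Nrsn1 (0.948) and Galnt14 (0.942) for Fgf12, LRRTM1 (0.989), Sez6 (0.986) and Adcy3 (0.972) for Fgf13, and Amigo1 (0.952), Kcna4 (0.951) and Prkci (0.949) for Fgf14. Fgfr1 was nearest to Coro7 (0.964), Eif4g3 (0.958) and Gpr63 (0.956), Fgfr2 to Erich2 (0.995) and Usp43 (0.983), and Fgfr3 to Fbxo42 (0.948), Glud1 (0.935) and Ap2b1 (0.934).

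The rest of the pathway was described with 97 listed genes, of which 73 were tested. Of these, 0 passed limma's adjusted p (smallest 0.983). At an unadjusted limma p under 0.05 there was 1 of the 73, Fgf16, against 2.91% of all tested. After TBI 25 of the 73 had a higher mean log2 level and 48 a lower one. Over all tested rows the shares were 50.4% higher and 49.6% lower. Of the 15 other secreted FGFs 5 were tested, 1 with a higher and 4 with a lower mean log2 level after TBI. Fgf16, a secreted factor of the Fgf9 group, was that 1, at 0.625, 0.878, 0.881, 0.622 and 1.81 FPKM in TBI 1 to TBI 5 and 0.197, 0.465, 0.493, 0.248 and 0.661 FPKM in sham 1 to sham 5. Injured libraries 2, 3 and 5 lay above all sham libraries, and injured libraries 1 and 4 below sham 5. Its log2 difference was 0.65 (SE 0.23, limma adjusted p = 0.983), at a level near 1 FPKM where a difference on the log2(FPKM + 0.5) scale understates the change. Fgf10 (1.77 ± 0.726 FPKM after TBI and 1.84 ± 0.332 FPKM in sham), Fgf5 (1.24 ± 0.490 FPKM after TBI and 1.32 ± 0.449 FPKM in sham), Fgf18 (1.09 ± 0.358 FPKM after TBI and 1.103 ± 0.207 FPKM in sham) and Fgf22, a presynaptic organizer of the mouse hippocampus (0.940 ± 0.142 FPKM after TBI and 1.08 ± 0.629 FPKM in sham), were tested too (SD, n = 5 each). The other 10 had means under 0.5 FPKM, and Fgf4 and Fgf6 are listed at 0 in every library.

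The fourth intracellular factor, Fgf11, was at 6.15, 12.8, 7.32, 13.6 and 5.43 FPKM in TBI 1 to TBI 5 and at 16.4, 6.20, 5.596, 7.59 and 6.36 FPKM in sham 1 to sham 5. Sham 1, TBI 2 and TBI 4 were high and the other 7 lay at 7.59 FPKM or below, and the log2 difference was 0.12 (SE 0.33, limma adjusted p = 0.986). Of the other receptors, the kinase-less Fgfrl1 was at 5.36 ± 0.450 FPKM after TBI and 5.34 ± 0.813 FPKM in sham (SD, n = 5 each), and Fgfr4, at 0.226 ± 0.0411 FPKM after TBI and 0.172 ± 0.0892 FPKM in sham, was below the limit for testing. Klotho (Kl), the coreceptor for Fgf23 and itself a choroid plexus marker, was at 72.8, 0.166, 21.8, 27.7 and 47.1 FPKM in TBI 1 to TBI 5 and at 0.0862, 44.0, 26.2, 0.242 and 1.27 FPKM in sham 1 to sham 5. Kl was at most 1.27 FPKM in the 4 libraries poor in Ttr and at least 21.8 FPKM in the 6 rich in it. Its log2 difference of 2.13 (SE 1.54, limma adjusted p = 0.983) was 0.13 with Ttr as a covariate. That fit cannot tell choroid plexus content from treatment.

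Of the adaptors and relays 14 of 19 were tested, 4 with a higher and 10 with a lower mean log2 level, with a median of -0.048. The phosphatase Ptpn11 was at 61.4 ± 10.1 FPKM after TBI and 71.5 ± 16.05 FPKM in sham and the docking protein Gab1 at 14.5 ± 1.99 FPKM after TBI and 13.2 ± 1.56 FPKM in sham (SD, n = 5 each). Frs2 shares its locus with Cct2 and was not used. Of the 15 feedback inhibitors and targets all were tested, 5 with a higher and 10 with a lower mean log2 level, with a median of -0.11. Spred2, an inhibitor of the Ras cascade, was at 26.7 ± 4.16 FPKM after TBI and 30.6 ± 2.44 FPKM in sham, Spred1 at 19.7 ± 1.38 FPKM after TBI and 22.2 ± 3.11 FPKM in sham, and the adhesion protein Flrt1 at 3.36 ± 0.578 FPKM after TBI and 4.08 ± 0.537 FPKM in sham. Genes known to be induced by receptor signalling did not pass either. The inhibitor Spry2 averaged 28.4 FPKM after TBI and 30.8 FPKM in sham, Spry4 3.74 FPKM after TBI and 3.85 FPKM in sham, and Spry1 2.12 FPKM after TBI and 1.85 FPKM in sham. The MAP kinase phosphatase Dusp6 averaged 20.5 FPKM after TBI and 22.1 FPKM in sham, and TBI 5 and sham 5 were its highest libraries. Of the transcription factors, Etv4 averaged 2.51 FPKM after TBI and 2.60 FPKM in sham, and Etv5 19.4 FPKM after TBI and 23.0 FPKM in sham.

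Heparan sulfate genes, which make and carry the cofactor of the receptors, were tested for 28 of 34, 12 with a higher and 16 with a lower mean log2 level and a median of -0.027. Extl1, a glycosyltransferase, was at 10.7 ± 2.88 FPKM after TBI and 13.2 ± 1.68 FPKM in sham, the sulfotransferase Hs6st2 at 7.81 ± 1.09 FPKM after TBI and 9.31 ± 1.78 FPKM in sham, and Ndst4 at 4.41 ± 1.42 FPKM after TBI and 6.26 ± 2.21 FPKM in sham (SD, n = 5 each). The carriers Sdc3 (35.8 ± 4.59 FPKM after TBI and 36.7 ± 3.27 FPKM in sham) and Gpc1 (47.8 ± 14.6 FPKM after TBI and 48.2 ± 11.3 FPKM in sham) were close in both groups. The endosulfatase Sulf1, named after its values were seen, was at 19.3, 1.49, 7.59, 8.33 and 9.73 FPKM in TBI 1 to TBI 5 and at 1.06, 13.13, 7.11, 2.67 and 0.818 FPKM in sham 1 to sham 5. It was at most 2.67 FPKM in the 4 libraries poor in Ttr and at least 7.11 FPKM in the 6 rich in it, and its log2 difference was 1.08 (SE 0.74, limma adjusted p = 0.983).

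All 8 tested partners of the intracellular FGFs had a lower mean log2 level, where 49.6% of all tested rows had one. Their median log2 difference was -0.13. It was 0.034 without TBI 1, and -0.18, -0.19, -0.15 and -0.16 without TBI 2, TBI 3, TBI 4 and TBI 5. TBI 1 was the library lowest in neuron and most glial markers, and whether this bears on the difference was not tested. The sodium channel subunit Scn4b was at 9.13 ± 3.34 FPKM after TBI and 11.03 ± 3.33 FPKM in sham (SD, n = 5 each), and the pore-forming Scn8a at 40.6 ± 9.96 FPKM after TBI and 43.7 ± 5.03 FPKM in sham. Their limma adjusted p was 0.983 each.

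**Figure D5:**
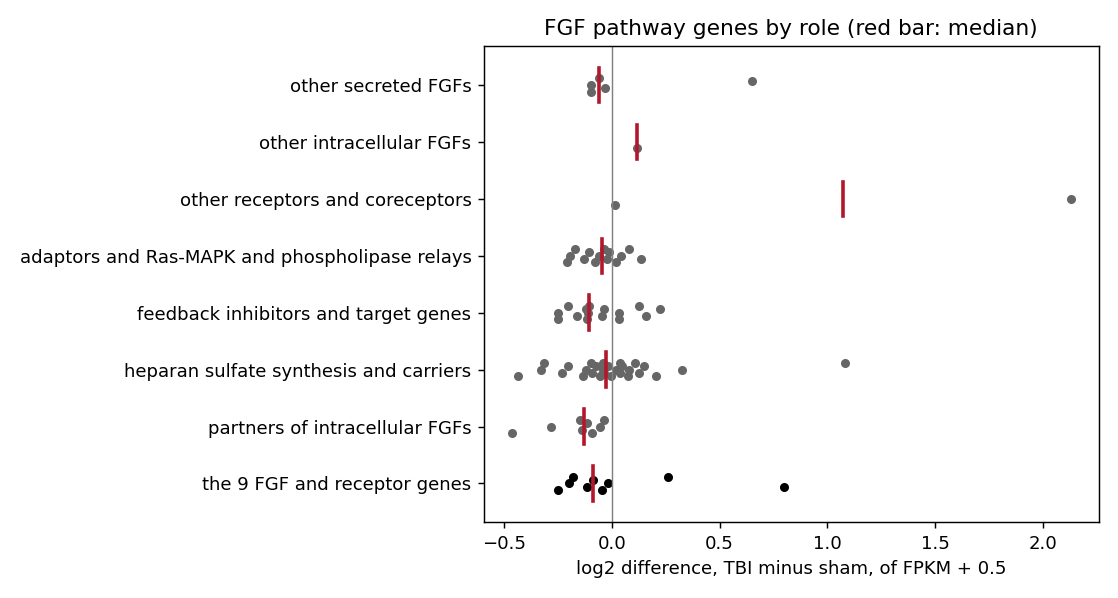
Log2 difference of FPKM + 0.5, TBI minus sham, of every tested gene of the 7 pathway lists and of the 9 FGF and receptor genes, with the median of each as a red bar. Most points lie within 0.5 of 0, and the points beyond 1 are Kl and Sulf1.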

How the data were processed

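Hippocampal poly-A RNA of 5 TBI and 5 sham libraries was sequenced on a HiSeq 2500, per the labels' protocols. Values are the FPKM the authors deposited. The submitters' processing notes name the aligners TopHat (also TopHat2) and Bowtie (also Bowtie2), the quantifiers Cufflinks and Cuffdiff, and the genome build rn5, with no role or version. Which annotation and filters the authors used is not stated there. The sums of FPKM per library were 523239 to 629660 while the 75th percentiles were nearly equal. FPKM are not counts, so no count test was run. At their best common shift, 22.2 to 25.9% of low values lay within 0.01 (log2) of a ratio of small whole numbers to sham 1. Most did not, fragments per value could not be recovered, and no depth is given, so intervals come from the spread between libraries and not from counting. The values carry no strand. The status word beside each value was OK for all loci of the 9 genes.

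Rows sharing a symbol were summed, which turned 25269 loci, 7177 of them unnamed, into 23824 rows. Groups were compared two-sided with limma 3.58.1 (R 4.3.3), lmFit followed by eBayes with a trend in the mean, fitted to log2(FPKM + 0.5) of rows with a mean of at least 0.5 FPKM, with Benjamini-Hochberg adjustment over all 16194 and a threshold of 0.05. It was tested on simulated data. Changes of low genes come out too small on this scale. The symbol Scn2a was matched as Scn2a1 through a gene table of the GRCr8 assembly. The marker rows Folr1, Hba1, Hbb and Zbtb20 were taken from loci that name them together with a related or enclosed gene. Beside the 9 genes, the text names of each pathway list the 3 with the smallest p and 15 genes listed beforehand, of which Klb was not analysed here. Some genes that this rule names are not reported here. The 9 genes and all lists were chosen with earlier results of these data known. Python 3.11.15 with scipy 1.17.1 was used for permutation tests, with 100000 resamples for relations over 10 libraries.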

Additional observations from a re-analysis of the deposited data

Results flagged for a closer look

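In groups of 5 libraries, a library was singled out when its gap to the nearest of the others exceeded 0.71 of the group's range (Dixon's critical value). Chance gives that in about 1 of 20 groups of normally distributed values. The rule was applied to FPKM and not on the log2 scale of the tests, so that rate may not hold here. Of 50 groups of named genes 4 held such a library. Fgf1 was at 28.5 FPKM in TBI 1, against 0.687 to 4.58 FPKM in the other injured libraries, and TBI 1 also had the most Ttr and a Col1a1 level of 30.5 FPKM. Fgf2 was at 18.3 FPKM in sham 5, against 9.33 to 11.5 FPKM in the other sham libraries, and sham 5 also had the most Aqp4 and Mbp. Among pathway genes, Fgf16 was at 1.81 FPKM in TBI 5, against 0.622 to 0.881 FPKM in the other injured libraries. Fgf11 was at 16.4 FPKM in sham 1, against 5.596 to 7.59 FPKM in the other sham libraries.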

How the results depend on the processing

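None of the 9 genes passed in any of the 25 alternatives, where the smallest limma adjusted p was 0.633, for Fgfr2. Over all tested rows 0 passed in each alternative except without sham 4, where 2 did (0 to 2 over the libraries left out): Plac9 and an unnamed locus, named after their values were seen. The signs of Fgf14, Fgf2 and Fgfr2 were the same in all 25, and those of the other genes were not. With Ttr as covariate the log2 difference was 0.068 for Fgf12, 0.0086 for Fgf13, 0.066 for Fgf5 and -0.0052 for Fgfrl1. With array weights it was 0.016 for Fgf9, 0.16 for Fgf12, 0.043 for Fgf13, 0.020 for Fgf10 and 0.11 for Fgf5. With libraries 2 to 5 alone it was -0.14 for Fgf1, 0.0091 for Fgf9, 0.093 for Fgf12, 0.16 for Fgf13, 0.016 for Fgfr1, 0.018 for Fgfr3, 0.095 for Fgf10, 0.17 for Fgf5 and 0.046 for Scn8a. Under quantile normalization it was 0.024 for Fgfr1 and -0.028 for Fgfrl1. Without TBI 1 and sham 2, an alternative chosen after seeing the data, it was 0.051 for Fgf12, 0.052 for Fgf13, 0.13 for Fgfr1, 0.066 for Fgf10, 0.039 for Fgf5 and 0.010 for Scn8a. With each library left out the range was -0.14 to 0.043 for Fgf12, -0.17 to 0.072 for Fgf13, -0.12 to 0.096 for Fgfr1, -0.23 to 0.096 for Fgf10, -0.20 to 0.12 for Fgf5, -0.22 to 0.033 for Scn8a, -0.045 to 0.38 for Fgf11 and -0.068 to 0.060 for Fgfrl1. The cause of these changes of sign was not tested.

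Of the 8 neighbouring pairs of levels 4 passed, and 4 to 6 with each library left out, 6 of them without TBI 1. With TBI or sham libraries alone 0 passed, where 5 libraries allow no p below 0.0625. Of the 63 relations 5 passed, and 1 without the 2 libraries farthest from the median. The numbers in the library names did not pair the samples: deviations of same-numbered libraries correlated at -0.38 to 0.31, over 0.1 in 1 of 5 pairs, and 1 of 10 libraries correlated best with its own number. With the replicate block 0 genes passed, and the log2 difference of Fgfr2 was 0.26 with a limma adjusted p of 0.963. The planned covariate Col1a2 was not run, since it is listed at 0 in every library; Col1a1, chosen after seeing the data, took its place and changed no call.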
